A study of Mus musculus with 4 samples.

Results

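The 36 genes described here encode 18 integrin alpha subunits, 8 integrin beta subunits and 10 laminin chains of the mouse. They were taken from a fixed list of gene names, out of 21887 protein-coding genes counted in the same way, and all 36 had reads in every library. The assay was single-nucleus ATAC-seq. In it the Tn5 transposase inserts adapters where chromatin is accessible, and barcodes assign each read to its nucleus. The nuclei came from mammary gland cells of CD1 mice, an outbred strain with no engineered allele or treatment in the labels, sorted as positive for the epithelial surface protein EpCAM and negative for lineage markers of other cells (Lin-). The fetal group held 2 biological replicates at embryonic day 18, and the adult group held 2 biological replicates at 8 weeks of age. The labels do not say how many animals each replicate held, so the p-values below measure the spread between these 2 libraries per stage.

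Integrins are heterodimers of 1 alpha and 1 beta chain that span the cell membrane and hold cells to the extracellular matrix or to other cells. Laminins are trimers of an alpha, a beta and a gamma chain, and they build the basement membrane on which the mammary epithelium stands. In the mammary gland the basal (myoepithelial) cells touch that membrane, attach to it through hemidesmosomes and other integrin contacts, and surround the luminal cells, which face the lumen and include progenitor and hormone-sensing mature cells.

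The libraries held 882 and 1695 fetal nuclei and 2465 and 2804 adult nuclei, with between 6028168 and 19304830 reads in listed nuclei, and no barcode was shared between libraries. A level is given below as reads per 1000000 listed reads (RPM) over the gene span with 2 kb added on either side. The authors' 14 deposited classes of nuclei nearly all belonged to 1 stage. Among adult nuclei, classes 1 and 8 together were highest in both libraries for 9 of 9 basal markers and are called basal-like. Classes 3 and 7 together were highest for 5 of 7 luminal progenitor markers and are called luminal progenitor-like. Classes 2 and 11 together were highest for 6 of 7 mature luminal markers and are called mature luminal-like. Fetal classes keep their numbers, because fetal class 4 was highest among fetal sets for 2 of 9 basal markers only. Class 4 exceeded fetal class 9 for 6 of 9 basal markers in both libraries, and class 9 exceeded class 4 for 6 of 6 luminal markers. The summed level of the 9 basal markers was 483 and 548 RPM in fetal class 4 against 1183 and 1045 RPM in adult basal-like nuclei. The 6 leukocyte markers summed to between 43.3 and 65.6 RPM in the 3 adult lineages and in fetal classes 4 and 9.

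Levels between genes were compared only per kb of counted sequence. Itga2b, which encodes the platelet integrin alpha chain, had the highest value in both stages, at 3.11 RPM per kb in fetal and 2.84 RPM per kb in adult libraries (means, n = 2 each). Lamb2, the laminin beta2 chain, had 2.76 and 2.58 RPM per kb, second in fetal libraries, while Lama5 was second in adult libraries with 2.66 RPM per kb. Itga6, the alpha chain of the laminin receptors alpha6beta1 and alpha6beta4, had 1.89 and 2.04 RPM per kb. Itgad and Itgax, both alpha chains of leukocyte integrins, were lowest, with 0.10 RPM per kb each in fetal libraries and 0.07 and 0.10 RPM per kb in adult libraries. Lama2 came next, with 0.13 and 0.17 RPM per kb. The counted stretch, flanks included, was 20.6 kb for Itga2b, 14.7 kb for Lamb2 and 640 kb for Lama2. Itgb7, with 21.4 kb, had 1.05 RPM per kb in fetal and 0.87 RPM per kb in adult libraries. The part of length and flanks in this order was not tested. Because ATAC-seq reads carry no strand, reads in a stretch shared by 2 gene spans were counted for both. Such sharing involved 16 listed genes, among them Itga2 with Mocs2, Lama3 with Ttc39c, Lama5 with Adrm1, Lamb3 with Camk1g and Lamc3 with Aif1l.

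**Figure D1:**
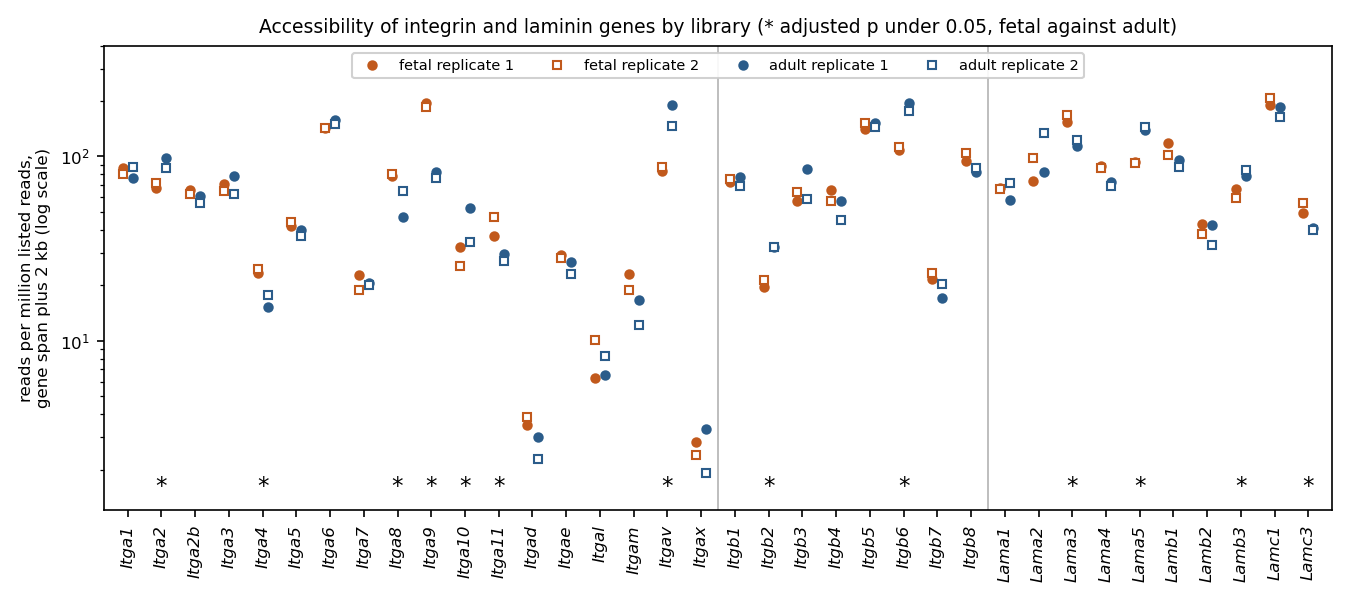
Level of each gene (vertical axis, RPM over the gene span plus 2 kb, log scale) in the 2 fetal (orange) and 2 adult (blue) libraries, with filled circles for replicate 1 and open squares for replicate 2. Stars mark the 13 genes that differed between the stages. Itga9 lies between 184 and 195 RPM in the fetal libraries and between 76.6 and 82.5 RPM in the adult ones.

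The first comparison asked which of these genes differed in accessibility between fetal and adult epithelium. Of the 36 genes, 13 differed by edgeR's quasi-likelihood test with Benjamini-Hochberg adjustment over 18808 genes, 6 higher and 7 lower in fetal libraries, where 22.2% of all genes were called. By direction, 11.3% of all genes were called higher and 10.9% lower. The median log2 change of fetal over adult was 0.11 over the listed genes and 0.01 over all genes. Library sums do not tell fewer nuclei of a type from fewer reads per nucleus of that type. The mature luminal-like nuclei, 1002 and 1074 of the adult nuclei, had no fetal class of their own. A call over all nuclei therefore need not hold within a lineage, and changes by lineage are given below.

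Among the receptors for collagen, Itga2 and Itga10 were lower and Itga11 was higher in fetal libraries. Itga2, the alpha chain of the collagen receptor alpha2beta1, had 67.4 and 71.7 RPM in fetal and 98.5 and 86.1 RPM in adult libraries. The stages did not overlap, and the log2 change was -0.40 (SE 0.11, adjusted p = 0.0227). Itga10, the alpha chain of a collagen receptor of cartilage, had 32.3 and 25.5 RPM in fetal and 52.4 and 34.3 RPM in adult libraries. All fetal values lay below the adult ones, with a log2 change of -0.59 (SE 0.18, adjusted p = 0.0279). Within the luminal progenitor side Itga10 had 41.6 and 29.9 RPM in fetal class 9 against 33.9 and 23.3 RPM in adult nuclei, a log2 change of 0.27 that did not pass the test. On the basal side the log2 change of Itga10 was -0.71 (SE 0.36, adjusted p = 0.263), also not called. Itga11, a receptor chain for fibrillar collagen, had 36.8 and 46.8 RPM against 29.5 and 27.1 RPM in adult libraries, a log2 change of 0.59 (SE 0.15, adjusted p = 0.013). By lineage Itga11 had 0.78 (adjusted p = 0.0139) on the luminal progenitor side and -0.38 (adjusted p = 0.458, not called) on the basal side. Itga1, the alpha chain of the collagen receptor alpha1beta1, had 86.8 and 80.0 RPM in fetal and 76.1 and 87.7 RPM in adult libraries, and the stages overlapped (adjusted p = 0.94).

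The 3 alpha chains of laminin receptors did not pass the test. Itga6 had 143 and 142 RPM in fetal and 158 and 150 RPM in adult libraries (log2 change -0.11, SE 0.10). Itga3, which pairs with beta1 to bind laminin-332, had 71.0 and 64.8 RPM against 78.3 and 62.3 RPM. Itga7, best known from muscle, had 22.7 and 18.8 RPM against 20.7 and 20.2 RPM, and the stages overlapped for Itga3 and Itga7.

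Among the alpha chains that bind fibronectin, vitronectin and related ligands, Itgav was lower and Itga8, Itga4 and Itga9 were higher in fetal libraries. Itgav, the partner of beta3, beta5, beta6 and beta8 (chromosome 2, 83722303 to 83806917), had 83.6 and 87.2 RPM in fetal and 190 and 147 RPM in adult libraries. Its fetal level was thus 0.51 times the adult level (log2 change -0.97, SE 0.12, adjusted p = 0.000123). Itga9, a receptor chain for tenascin-C and osteopontin (chromosome 9, 118606709 to 118901003), had 195 and 184 RPM in fetal and 82.5 and 76.6 RPM in adult libraries. This was the largest change of the 36, 2.38 times the adult level (log2 change 1.25, SE 0.10, adjusted p = 7.15e-06). Itga4, a receptor chain for fibronectin and VCAM1, had 23.2 and 24.4 RPM against 15.3 and 17.7 RPM (log2 change 0.53, SE 0.17, adjusted p = 0.0353). Itga8, the nephronectin receptor chain, had 78.1 and 80.1 RPM against 47.2 and 65.0 RPM (log2 change 0.49, SE 0.15, adjusted p = 0.0351). Within the lineages Itga8 was not called, with a log2 change of -0.29 on the basal side (fetal class 4 against adult basal-like nuclei) and 0.18 on the luminal progenitor side (fetal class 9 against adult luminal progenitor-like nuclei). Itga4 was called in neither lineage, with 0.25 (adjusted p = 0.73) on the basal and 0.70 (adjusted p = 0.0519) on the luminal progenitor side. On the basal side Itga9 had a log2 change of 0.42 (adjusted p = 0.155) and was not called. Itga5, the main fibronectin receptor chain, had 42.0 and 44.0 RPM in fetal and 40.0 and 37.0 RPM in adult libraries, and it did not pass the test (adjusted p = 0.38).

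The leukocyte alpha chains Itgad, Itgal, Itgam and Itgax and the intraepithelial lymphocyte chain Itgae did not pass the test. Itgam was nearest, with 22.9 and 18.7 RPM in fetal and 16.6 and 12.2 RPM in adult libraries (log2 change 0.53, adjusted p = 0.0567). Itgal, with 6.30 and 10.1 RPM in fetal and 6.55 and 8.29 RPM in adult libraries, overlapped between the stages. Itgad had 3.48 and 3.86 RPM against 3.02 and 2.28 RPM, and Itgax had 2.82 and 2.40 RPM against 3.31 and 1.92 RPM. The levels of Itgad and Itgax rest on few reads, between 17 and 61 per library.

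Of the 8 beta chains, Itgb2 and Itgb6 were lower in fetal libraries and the other 6 did not pass the test. Itgb6, whose product with alphav binds the latent form of TGF-beta in epithelia (chromosome 2, 60598292 to 60722603), had 109 and 112 RPM in fetal and 196 and 177 RPM in adult libraries. The stages were well apart, with a log2 change of -0.75 (SE 0.10, adjusted p = 0.000227). On the basal side Itgb6 had a log2 change of -0.25 (adjusted p = 0.486) and was not called. Itgb2, the common beta chain of leukocyte integrins, had 19.6 and 21.5 RPM against 32.4 and 32.3 RPM (log2 change -0.64, SE 0.15, adjusted p = 0.00683). Itgb1, the partner of most alpha chains, had 72.3 and 75.1 RPM in fetal and 77.6 and 69.4 RPM in adult libraries, with a log2 change of 0.01 (SE 0.11). Itgb4, the hemidesmosome partner of alpha6, had 65.7 and 57.7 RPM against 57.4 and 45.4 RPM (log2 change 0.26, SE 0.13, adjusted p = 0.16). Among the remaining beta chains, Itgb3, Itgb5, Itgb7 and Itgb8, the log2 change ran from -0.23 to 0.28.

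Among the laminins, Lama3 and Lamc3 were higher and Lama5 and Lamb3 lower in fetal libraries. Lama3, the alpha chain of laminin-332 of hemidesmosomes (chromosome 18, 12333417 to 12583013), had 154 and 168 RPM in fetal and 114 and 123 RPM in adult libraries. Its log2 change was 0.44 (SE 0.11, adjusted p = 0.0115). Lamb3, the beta chain of the same trimer (chromosome 1, 193294353 to 193343878), had 66.5 and 59.7 RPM against 78.7 and 84.7 RPM, a log2 change of -0.38 (SE 0.12, adjusted p = 0.0329). The 2 genes of this trimer on the list thus differed between the stages in opposite directions. Lama5, the alpha chain of laminin-511 and laminin-521 (chromosome 2, 180176373 to 180225904), had 92.9 and 92.1 RPM in fetal and 139 and 145 RPM in adult libraries. The log2 change of Lama5 was -0.62 (SE 0.11, adjusted p = 0.00114). It was -0.59 (adjusted p = 0.0998) on the basal and -0.31 (adjusted p = 0.135) on the luminal progenitor side, and Lama5 was called in neither. Lamc3, the gamma3 chain, had 49.3 and 56.1 RPM against 40.8 and 40.0 RPM (log2 change 0.39, SE 0.13, adjusted p = 0.0402). Lama4, the alpha chain of vessel and mesenchyme laminins, had 88.8 and 86.3 RPM against 72.3 and 68.9 RPM, did not overlap, and missed the threshold (log2 change 0.31, adjusted p = 0.0557). The log2 changes of Lama1, Lama2, Lamb1, Lamb2 and Lamc1 ran from -0.33 to 0.25 without passing the test.

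Itga9, Itgav, Itgb6 and Lama5 kept their calls under all 11 alternative settings. Each of the other 9 calls was lost when some library was left out, with adjusted p up to 0.424 over all alternatives. Without fetal replicate 1 the log2 changes were -0.33 for Itga2, 0.59 for Itga4, 0.53 for Itga8, -0.56 for Itgb2 and -0.42 for Lamb3. Without fetal replicate 2, the larger fetal library, they were -0.49 for Itga2, 0.45 for Itga4, 0.43 for Itga8, -0.45 for Itga10, 0.34 for Itga11, 0.34 for Lama3, -0.34 for Lamb3 and 0.25 for Lamc3. Without adult replicate 1 they were 0.40 for Itga4, 0.25 for Itga8 and -0.31 for Itga10, and without adult replicate 2 the value was -0.31 for Lamb3. Counting the gene span without its flanks also lost Itga2 (log2 change -0.17) and Itga4 (0.47), and DESeq2 did not call Itga4, Lamb3 and Lamc3. Scaling by the total of listed reads instead of edgeR's TMM factors lost Lamc3 as well.

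The adult classes were then set side by side to see in which lineage each gene was accessible. The authors drew the classes from the same reads, so these values are descriptions with no test. A gene counts as different where both libraries differed at least 1.5-fold in 1 direction and the higher side averaged at least 10 reads. A gene with few reads in a class could thus count as lower there but not as higher. The shares over all genes follow the same rule. Adult basal-like nuclei exceeded luminal progenitor-like nuclei for 11 of 35 genes, where 8.63% of 17304 genes did so. No listed gene was higher in luminal progenitor-like nuclei, where 11.4% of all genes were. The 11 genes were Itga1, Itga3, Itga4, Itga11, Itgad, Lama1, Lama2, Lama3, Lamb3, Lamc1 and Lamc3. They included 6 of the 10 laminin chains and no integrin beta subunit.

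Among the laminin genes, Lama3 had 310 and 243 RPM in adult basal-like nuclei against 72.7 and 97.8 RPM in luminal progenitor-like and 95.9 and 86.9 RPM in mature luminal-like nuclei. Lama1, the alpha chain of laminin-111 (chromosome 17, 67697127 to 67822645), had 172 and 134 RPM in basal-like against 52.8 and 60.9 RPM in luminal progenitor-like nuclei. In mature luminal-like nuclei it had 34.6 and 47.5 RPM, so the basal-like level was 4.95 and 2.82 times as high in the 2 libraries. Lamb3 had 143 and 132 RPM in basal-like, 78.6 and 77.4 RPM in luminal progenitor-like and 59.7 and 68.6 RPM in mature luminal-like nuclei. Lamc3 had 61.3 and 56.8 RPM in basal-like against 24.5 and 25.5 RPM in luminal progenitor-like nuclei, with 45.6 and 39.0 RPM in mature luminal-like nuclei. Lamc1, the gamma chain of most laminins, had 219 and 199 RPM, 130 and 127 RPM, and 208 and 159 RPM in the same order. Lama2, the alpha chain of muscle and stromal laminin, had 131 and 157 RPM in basal-like, 47.7 and 103 RPM in luminal progenitor-like and 94.7 and 134 RPM in mature luminal-like nuclei. The 2 classes called basal-like differed in Lama2, which had 173 and 216 RPM in class 8 and 93.7 and 100.2 RPM in class 1. Lama2 also had 58.8 and 134 RPM in class 3 against 41.8 and 72.9 RPM in class 7. In class 11 it had 99.7 and 167 RPM against 93.2 and 113 RPM in class 2.

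Of the integrin genes, Itga1 had 150 and 141 RPM in basal-like nuclei, 68.2 and 80.1 RPM in luminal progenitor-like and 61.3 and 65.3 RPM in mature luminal-like nuclei. Itga11 had 59.4 and 50.1 RPM in basal-like against 26.2 and 17.5 RPM in luminal progenitor-like nuclei. Itga3 had 116 and 92.9 RPM against 75.6 and 60.9 RPM, and Itga4 had 26 and 23.5 RPM against 14.5 and 14.8 RPM. The 2 basal-like classes differed for Itga4, with 34.1 and 38.8 RPM in class 8 and 18.7 and 8.84 RPM in class 1. The classes of the other adult lineages differed too. Itga4 had 19.0 and 22.7 RPM in class 3 against 12.1 and 7.21 RPM in class 7. In class 11 it had 23.6 and 23.6 RPM against 9.71 and 12.7 RPM in class 2. The Itgad ratio of 4.36 and 3.00 came from 6 and 14 reads in basal-like and 4 and 6 reads in luminal progenitor-like nuclei. Itgad thus met the read rule through basal-like nuclei only.

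Against mature luminal-like nuclei, basal-like nuclei were higher for 12 of 36 genes (11.1% of all genes) and lower for 4 (16.4% of all genes). Besides Itga1, Itga3, Itga11, Lama1, Lama3 and Lamb3, the 12 were Itga8, Itga9, Itgb2, Itgb3, Itgb8 and Lama4. Itgb8, an alphav partner that binds latent TGF-beta, had 172 and 154 RPM in basal-like, 123 and 130 RPM in luminal progenitor-like and 27.5 and 29.8 RPM in mature luminal-like nuclei. Itga9 had 147 and 137 RPM, 107 and 90.8 RPM, and 42.3 and 34.7 RPM in the same order. Itga8 had 83.0 and 110 RPM in basal-like, 64.8 and 79.5 RPM in luminal progenitor-like and 23.0 and 33.5 RPM in mature luminal-like nuclei. Lama4 was highest in luminal progenitor-like nuclei, with 117 and 114 RPM, followed by 86.7 and 78.1 RPM in basal-like and 29.9 and 35.2 RPM in mature luminal-like nuclei. Mature luminal-like nuclei thus had the least accessible Itgb8, Itga9, Itga8 and Lama4 of the 3 adult lineages. Itgb2 had 63.8 and 46.8 RPM in basal-like against 24.5 and 21.1 RPM in mature luminal-like nuclei. Itgb3, the vitronectin receptor beta chain, had 116 and 75.1 RPM against 48.7 and 41.2 RPM.

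The 4 genes higher in mature luminal-like than in basal-like nuclei were Itga10, Itgal, Itgax and Lama5. Lama5 had 174 and 180 RPM in mature luminal-like, 122 and 151 RPM in luminal progenitor-like and 95.3 and 84.9 RPM in basal-like nuclei. Itga10 had 71.6 and 50.6 RPM in mature luminal-like, 33.9 and 23.3 RPM in luminal progenitor-like and 47.7 and 19.3 RPM in basal-like nuclei. Itgal had 10.1 and 11.7 RPM in mature luminal-like and 1.24 and 6.26 RPM in basal-like nuclei. Itgax had 30 and 25 reads in mature luminal-like and 0 and 4 reads in basal-like nuclei. It met the read rule through mature luminal-like nuclei only. The summed level of the leukocyte markers was 48.7 and 45.3 RPM in mature luminal-like and 45.8 and 60.8 RPM in basal-like nuclei.

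Luminal progenitor-like nuclei were higher than mature luminal-like nuclei for 6 genes, Itga2, Itga8, Itga9, Itgb3, Itgb8 and Lama4 (8.37% of all genes). Mature luminal-like nuclei were higher for 5, Itga10, Itgad, Itgal, Itgax and Lamc3 (10.1% of all genes). Itgad, with 4 and 6 reads in luminal progenitor-like nuclei, and Itgax, with 6 and 6, met the read rule through mature luminal-like nuclei only. Itga2 was highest in luminal progenitor-like nuclei, with 152 and 114 RPM against 76.8 and 107 RPM in basal-like and 65.6 and 58.9 RPM in mature luminal-like nuclei. Itgav did not differ by 1.5-fold in both libraries for any pair of lineages, with 119 and 115 RPM in basal-like, 230 and 153 RPM in luminal progenitor-like and 182 and 159 RPM in mature luminal-like nuclei. Itgb6 and Itga6 stayed within 1.5-fold too, Itga6 with 173 and 165 RPM in basal-like, 142 and 137 RPM in luminal progenitor-like and 175 and 163 RPM in mature luminal-like nuclei.

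Among fetal nuclei, class 4 exceeded class 9 for 3 of 35 genes, Itgb2, Lama2 and Lama3 (3.6% of all genes), and class 9 exceeded class 4 for 3, Itga10, Itgam and Lama5 (6.53% of all genes). Lama3 had 268 and 272 RPM in class 4 against 127 and 146 RPM in class 9. Lama5 had 58.7 and 58.2 RPM in class 4 against 127 and 100 RPM in class 9. Itgb2 had 41.2 and 36.7 RPM against 18.7 and 18.6 RPM, and Lama2 had 116 and 140 RPM against 60.3 and 79.8 RPM. Lama1 and Lamb3 lay close together in the 2 fetal classes, with 63.8 and 68.5 RPM in class 4 against 68.8 and 61.9 RPM in class 9 for Lama1, and 62.8 and 66.3 RPM against 73.7 and 58.0 RPM for Lamb3. At 2-fold in both libraries no listed gene differed between the 2 fetal classes.

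**Figure D2:**
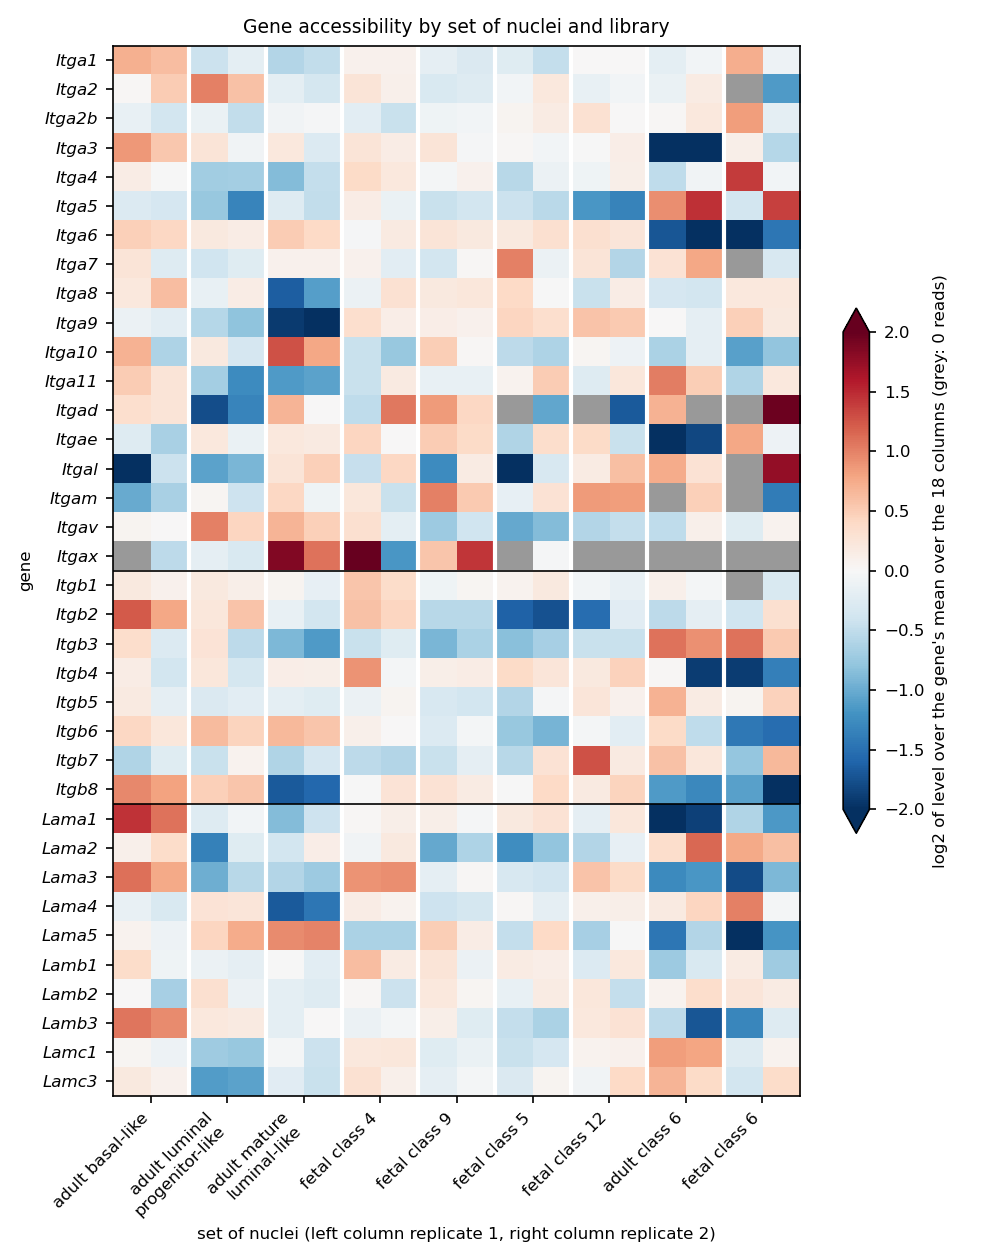
Level of each gene (rows) in each set of nuclei (columns, replicate 1 left and replicate 2 right), coloured by the log2 ratio to the gene's mean over the 18 columns, with grey for 0 reads. Lama1 and Lamb3 are highest in adult basal-like nuclei, Itgb8, Itga9 and Lama4 are lowest in adult mature luminal-like nuclei among the adult lineages, and Lama5 is highest there.

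Class 6 held 82 and 75 adult nuclei and had the highest level of 7 of 7 stromal markers among the adult sets, with a summed stromal level of 568 and 517 RPM against 133 and 133 RPM in adult basal-like nuclei. The 5 endothelial markers summed to 208 and 175 RPM there against 138 and 130 RPM in adult basal-like nuclei, and 2 of them were highest in class 6 in both libraries. The part of stromal or endothelial nuclei in the levels below was not tested. Against all other adult nuclei, 8 of 35 listed genes were at least 1.5-fold higher in both libraries (9.26% of all genes) and 9 were lower (23.6% of all genes). Of the lower genes, Itgax had 0 reads in class 6, Itgae 2 and 4, Itga3 4 and 4, and Lama1 2 and 10. These genes met the read rule through the other nuclei only. They could count as lower but not as higher. Itga5, the alpha subunit of the fibronectin receptor, had 102 and 147 RPM in class 6, which was 2.68 and 4.37 times the level in the other nuclei. Itgb3 had 192 and 171 RPM (2.33 and 3.09 times) and Lamc1 had 383 and 368 RPM (2.14 and 2.34 times). The other higher genes were Itga9, Itga11, Lama2, Lama4 and Lamc3. Itga3 and Itga6, subunits of laminin receptors of epithelia, were among the lowest, with 9.47 and 6.92 RPM for Itga3 (0.12 and 0.11 times) and 37.9 and 24.2 RPM for Itga6 (0.23 and 0.16 times). Itgae, Itgax, Itgb8, Lama1, Lama3, Lama5 and Lamb3 were lower too. As for the other classes, these are descriptions with no test.

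Fetal class 6 held 23 and 33 nuclei, and 2 of 30 listed genes were higher there than in the other fetal nuclei (6.6% of all genes), Itgb3 at 3.58 and 2.09 times and Lama2 at 2.94 and 1.92 times, while 11 were lower (26.7% of all genes). Genes with few reads in this small class could count as lower but not as higher, so the 2 counts are not on equal terms. Itgax, with 0 reads there in both libraries, counts as lower. Without the nuclei of class 6, the same 13 listed genes were called between stages.

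Stage was next compared within the basal side, fetal class 4 against adult basal-like nuclei, and within the luminal progenitor side, fetal class 9 against adult luminal progenitor-like nuclei. Classes and stages nearly coincide, so a difference between classes and a difference between stages cannot be told apart here. These tests use the same libraries as the comparison of all nuclei and are not independent of it.

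On the basal side 3 of 35 genes were called, Itgb8, Lama1 and Lamb3, all lower in fetal class 4, where 6.16% of 16476 genes were called, 2.98% higher and 3.18% lower. Lama1 had 63.8 and 68.5 RPM in fetal class 4 against 172 and 134 RPM in adult basal-like nuclei, a log2 change of -1.16 (SE 0.20, edgeR adjusted p = 0.000193). Lamb3 had 62.8 and 66.3 RPM against 143 and 132 RPM, a log2 change of -1.05 (SE 0.20, adjusted p = 0.000692). Itgb8 had 87.5 and 106 RPM against 172 and 154 RPM, a log2 change of -0.70 (SE 0.19, adjusted p = 0.0178). The values of each gene did not overlap between the stages. Lama3 had 268 and 272 RPM in fetal class 4 against 310 and 243 RPM in adult basal-like nuclei and overlapped (SE of the log2 change 0.15). The calls of Lama1 and Lamb3 held under all 11 alternatives, while Itgb8 lost its call under DESeq2, without fetal replicate 1 (log2 change -0.57) or without adult replicate 1 (-0.65), with adjusted p up to 0.18. The summed basal marker level, 483 and 548 RPM in fetal class 4 against 1183 and 1045 RPM in adult basal-like nuclei, moved with these genes, and its part in the result was not tested. Fetal class 12, with 92 and 247 nuclei, had a summed basal marker level of 504 and 539 RPM, close to that of class 4. In an alternative chosen after seeing the data, classes 4 and 12 together were compared with adult basal-like nuclei. Itgb8, Lama1 and Lamb3 kept their calls, and 4 more listed genes were called, Itga9 higher (log2 change 0.50) and Itga1 (-0.64), Itga3 (-0.59) and Itgb2 (-0.87) lower, where 1582 of 16938 genes were called.

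On the luminal progenitor side 14 of 36 genes were called, 8 higher and 6 lower in fetal class 9, where 15.8% of 17376 genes were called, 7.75% higher and 8.05% lower. The summed luminal progenitor marker level was 269 and 258 RPM in fetal class 9 against 464 and 404 RPM in adult luminal progenitor-like nuclei, and the summed basal marker level was 393 and 358 RPM against 272 and 284 RPM. These sums moved with the called genes, and their part in the result was not tested. The lower genes were Itga2, Itgav, Itgb2, Itgb3, Itgb6 and Lama4. Itgav had 69.1 and 86.1 RPM in fetal class 9 against 230 and 153 RPM in adult luminal progenitor-like nuclei (log2 change -1.30, SE 0.16, edgeR adjusted p = 7.08e-06). Itga2 had 61.0 and 62.8 RPM against 152 and 114 RPM (log2 change -1.11, SE 0.14, adjusted p = 1.41e-05). Itgb2 had 18.7 and 18.6 RPM against 32.0 and 40.4 RPM (log2 change -0.98, adjusted p = 0.00275). Itgb6 had 109 and 127 RPM against 204 and 178 RPM (log2 change -0.70, adjusted p = 0.000413), and Lama4 had 72.6 and 75.4 RPM against 117 and 114 RPM (log2 change -0.65, adjusted p = 0.00123). Itgb3 had 48.0 and 58.6 RPM against 110 and 63.2 RPM (log2 change -0.69, adjusted p = 0.0151). Of the genes of the alphav partners named above, Itgb3 and Itgb6 thus passed the test, while Itgb5 and Itgb8 did not. Itgb5 had 134 and 130 RPM against 137 and 145 RPM, and Itgb8 had 108 and 99.4 RPM against 123 and 130 RPM. Itgb1, the partner of most alpha chains, was not called either (log2 change -0.19).

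The 8 higher genes were Itga5, Itga9, Itga11, Itgad, Itgam, Lama3, Lamc1 and Lamc3. Lamc3 had 46.9 and 51.7 RPM in fetal class 9 against 24.5 and 25.5 RPM in adult luminal progenitor-like nuclei (log2 change 0.97, SE 0.18, adjusted p = 0.000792). Itga9 had 174 and 168 RPM against 107 and 90.8 RPM (log2 change 0.77, SE 0.12, adjusted p = 0.000132). Lama3 had 127 and 146 RPM against 72.7 and 97.8 RPM (log2 change 0.66, adjusted p = 0.0031), and Lamc1 had 181 and 196 RPM against 130 and 127 RPM (log2 change 0.53, adjusted p = 0.00274). Itga11 had 37.7 and 37.9 RPM against 26.2 and 17.5 RPM, Itga5 had 39.1 and 41.3 RPM against 31.5 and 21.2 RPM, and Itgam had 30.0 and 21.5 RPM against 15.3 and 11.3 RPM. Their log2 changes were 0.78, 0.60 and 0.90. Itgad rested on 15 and 26 reads against 4 and 6 reads, and it lost its call under 7 of 9 alternatives. It reached the mean of 10 reads needed for the test through fetal class 9 only, and it is included in the 8.

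Itga2, Itga9, Itgav, Itgb2, Itgb6, Lama4 and Lamc3 kept their calls on the luminal progenitor side under all 11 alternatives. Each of the other 7 lost its call without some library, with adjusted p up to 0.435. DESeq2 also lost Itga5, Itga11, Itgad and Itgam, which left 4 higher and 6 lower listed genes, and counting the gene span without its flanks lost Itga5 and Itgad. Without fetal replicate 1 the log2 changes were 0.67 for Itga5, 1.93 for Itgad, 0.71 for Itgam and -0.54 for Itgb3, and without fetal replicate 2 they were 0.53 for Itga5, 0.75 for Itga11, 0.53 for Lama3 and 0.45 for Lamc1. Without adult replicate 1 they were 1.88 for Itgad and -0.26 for Itgb3, and without adult replicate 2 they were 0.36 for Itga5, 0.53 for Itga11, 2.36 for Itgad and 0.71 for Itgam.

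Whether the stage difference itself differed between the lineages was tested with an interaction term over 8 sums, 2 per library, with the library as a block. The authors drew the classes on both sides from the same reads, so this test and its p-values are not independent of those classes. Itga11, Lama1, Lama3, Lamb3 and Lamc3, called below, were also among the genes higher in adult basal-like than in luminal progenitor-like nuclei. Of 35 genes, 8 were called, where 6.08% of 17068 genes were called, 2.43% with a higher and 3.64% with a lower change on the basal side. The lineage markers moved in the same test: 9 of 9 basal markers were called with a lower change on the basal side, such as Krt17 (-3.08) and Mylk (-1.30). Of the 7 luminal progenitor markers, Kit (2.99), Lcn2 (1.31) and Elf5 were called with a higher one. Their part in the result was not tested. The fetal-over-adult log2 change was higher on the basal than on the luminal progenitor side for Itgav by 1.23 (SE 0.20, edgeR adjusted p = 1.98e-07), for Lama4 by 0.98 (SE 0.22, adjusted p = 0.000467) and for Itga2 by 0.93 (SE 0.22, adjusted p = 0.00132). For these 3 genes the change on the basal side was 0.04, 0.36 and -0.12, and none of these passed the test there. The difference, basal minus luminal progenitor, was -1.35 for Lama1 (SE 0.23, adjusted p = 8.84e-07), -1.24 for Itga11, -0.94 for Lamc3, -0.78 for Lamb3 and -0.69 for Lama3. Of the 8 genes, 5 were laminin chains, and 10 of the 35 genes tested were laminin chains. Lama1 thus changed on the basal side and had a log2 change of 0.17 (SE 0.15) on the luminal progenitor side, whereas Lama3 had 0.00 (SE 0.15) on the basal side and 0.66 on the luminal progenitor side.

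Lama1 and Lama4 kept the difference under all 11 alternatives, and these 2 were the only listed genes called by DESeq2, under which the difference of Itgav was 1.31 (adjusted p = 0.173). Without adult replicate 1 the difference was 0.54 for Itga2, -0.33 for Lama3, -0.73 for Lamb3 and -0.86 for Lamc3, and without adult replicate 2 it was -1.07 for Itga11, -0.82 for Lamb3 and -1.02 for Lamc3. Without fetal replicate 1 it was -1.02 for Itga11 and -0.61 for Lamb3, and without fetal replicate 2 it was -0.58 for Lama3 and -0.72 for Lamc3. Without the library as a block Itga11 (-1.17), Lama3 (-0.69), Lamb3 (-0.80) and Lamc3 (-0.94) were not called. In these settings the calls were lost, with adjusted p up to 0.615 over all alternatives. With fetal classes 4 and 12 together all 8 were called, and Itga1 (-0.69) and Itga8 (-0.62) were called as well.

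**Figure D3:**
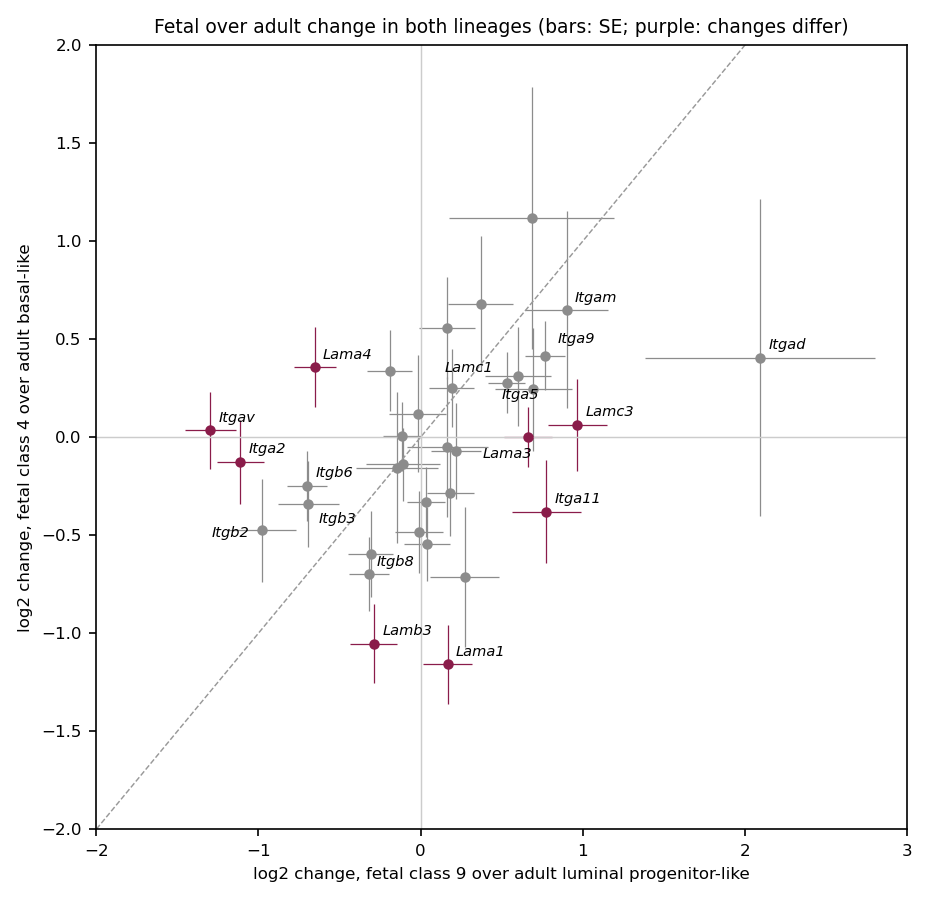
Log2 change of fetal over adult on the luminal progenitor side (horizontal axis) and on the basal side (vertical axis) for the 35 genes tested in both, with SE bars and a dashed line where both are equal. The 8 genes in purple differed between the sides, with Itgav, Itga2 and Lama4 above the line and Itga11, Lama1, Lama3, Lamb3 and Lamc3 below it.

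Accessibility was also counted in the authors' deposited promoter and distal regions, each 1000 bases wide. Within 10 kb of the 36 spans lay 67 promoter regions, of which 66 had enough reads to be tested. Of these, 7 were higher and 4 lower in fetal libraries, where 21.5% of 18570 promoter regions were called, 10.5% higher and 11% lower. Their median log2 change was 0.07, against 0.00 over all promoter regions.

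Promoter letters are shown for the 5 genes whose start lay in a called region that covered the 250 bases before the start. Their part in the differences was not tested. They come from RefSeq on build GRCm38.p6, which the files call mm10, and run 5′ to 3′ on the strand of the gene. The letters stop where the annotated gene span begins, and capitals mark CpG. Of the 36 genes, 23 had an entry in the promoter table used.
Itga2: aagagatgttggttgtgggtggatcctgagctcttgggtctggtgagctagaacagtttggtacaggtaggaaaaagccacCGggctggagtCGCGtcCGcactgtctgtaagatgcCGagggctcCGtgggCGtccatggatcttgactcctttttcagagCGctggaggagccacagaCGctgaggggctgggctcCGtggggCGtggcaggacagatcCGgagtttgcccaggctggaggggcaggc
Itgax: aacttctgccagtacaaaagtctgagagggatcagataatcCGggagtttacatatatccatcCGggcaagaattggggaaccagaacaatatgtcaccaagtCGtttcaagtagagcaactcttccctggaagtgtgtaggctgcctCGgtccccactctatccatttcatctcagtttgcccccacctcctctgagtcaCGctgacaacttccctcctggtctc
Itgb8: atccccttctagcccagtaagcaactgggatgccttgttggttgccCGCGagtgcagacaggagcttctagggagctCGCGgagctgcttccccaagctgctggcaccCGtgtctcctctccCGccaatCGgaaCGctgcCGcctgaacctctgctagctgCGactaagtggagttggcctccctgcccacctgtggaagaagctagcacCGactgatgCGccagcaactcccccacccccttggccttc
Lama5: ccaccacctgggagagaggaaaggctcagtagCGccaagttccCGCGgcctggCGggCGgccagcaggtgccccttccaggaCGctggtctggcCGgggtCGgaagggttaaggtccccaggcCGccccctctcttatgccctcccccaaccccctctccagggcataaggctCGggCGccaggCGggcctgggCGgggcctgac
Lamb1: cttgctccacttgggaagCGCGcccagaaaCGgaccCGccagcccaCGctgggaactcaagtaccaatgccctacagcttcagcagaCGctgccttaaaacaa
They cover chr13:114932101-114932350 (minus strand) for Itga2, chr7:128129300-128129525 (plus) for Itgax, chr12:119238277-119238526 (minus) for Itgb8, chr2:180225905-180226109 (minus) for Lama5 and chr12:31265043-31265145 (plus) for Lamb1. In the full 250 bases before the start, Lama5 held 19 CpG, Lamb1 14, Itga2 12, Itgb8 12 and Itgax 5. Over 27025 promoters of the same length the median was 6 CpG, with quartiles of 2 and 16. Itga2, Itgb8, Lama5 and Lamb1 thus lay above the median, with regions that differed in both directions, and Itgax lay below it.

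Motif letters were searched in the same 250 bases on both strands, taking the first entry of each of the 23 genes. AP-1 (TGANTCA) was found in Itgax alone, and in 6.87% of all promoters. TEAD (GGAATG) was found in Itga10 and Itgb1 (12.6% of all promoters), RUNX (TGTGGT) in Itga4 (14.2%) and SOX (ACAAAG) in Itgb1 (16.5%). The palindromic NFI motif was in no listed promoter and in 0.0407% of all. Further entries, left out of these shares, held RUNX and SOX matches for Itga3 and a TEAD match for Lamb3. Of the 5 promoters printed above, Itgax was the only one with a match to any of the motifs.

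Of the 7 promoter regions higher in fetal libraries, those of Lama4, Lamb1, Lamb2 and Lama5 are given first. The Lama4 region had 30.0 and 23.7 RPM in fetal and 14.1 and 11.7 RPM in adult libraries (log2 change 1.03, SE 0.16, edgeR adjusted p = 6.17e-07). In adult nuclei it had 30.9 and 26.6 RPM in luminal progenitor-like, 13 and 11 RPM in basal-like and 1.04 and 2.57 RPM in mature luminal-like nuclei. Fetal classes 4 and 9 had 24.7 and 23.2 RPM and 26.1 and 24.5 RPM there. The Lamb1 region, at the beta chain gene of laminin-111, had 13.1 and 9.56 RPM in fetal against 5.08 and 3.73 RPM in adult libraries (log2 change 1.34, SE 0.25, adjusted p = 3.29e-05). The Lamb2 region had 10.6 and 7.40 RPM against 4.27 and 4.2 RPM (log2 change 1.04, SE 0.27, adjusted p = 0.00266). The Lama5 region had 21.9 and 22.5 RPM against 14.6 and 16.7 RPM (log2 change 0.50, SE 0.16, adjusted p = 0.0169). The Lama5 promoter region was thus higher in fetal libraries while its whole gene span was lower.

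Of the integrin promoter regions, that of Itgb8 was higher in fetal libraries, with 46.3 and 44.4 RPM against 33.6 and 30.7 RPM (log2 change 0.49, SE 0.12, adjusted p = 0.00127). By class it had 83.0 and 50.8 RPM in adult basal-like, 40.7 and 42.2 RPM in luminal progenitor-like and 16.2 and 15.4 RPM in mature luminal-like nuclei, against 36 and 42.5 RPM in fetal class 4 and 52.9 and 43.0 RPM in fetal class 9. The region at the start of Itga4 had 3.65 and 4.11 RPM against 1.47 and 1.97 RPM (log2 change 1.16, adjusted p = 0.0295). A promoter region 4.19 kb downstream of Itga2b had 2.49 and 2.72 RPM against 0.59 and 1.14 RPM (log2 change 1.54, adjusted p = 0.0337).

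Lower in fetal libraries were 2 regions of Itga2 and 1 each of Itgb2 and Itgax. The Itga2 region 1.08 kb upstream of the span had 4.48 and 5.51 RPM in fetal against 18.9 and 16.8 RPM in adult libraries (log2 change -1.78, SE 0.21, adjusted p = 8.2e-10). In adult classes it had 8.67 and 14 RPM in basal-like, 21.9 and 16.3 RPM in luminal progenitor-like and 21.9 and 18.8 RPM in mature luminal-like nuclei. The region at the Itga2 start had 12.1 and 9.37 RPM against 15.9 and 14.3 RPM (log2 change -0.53, adjusted p = 0.0357). The region inside Itgb2, 1.37 kb from the low end of the gene, had 1.66 and 2.21 RPM against 8.46 and 8.70 RPM (log2 change -2.07, SE 0.31, adjusted p = 3.59e-07). It had 13.9 and 12.1 RPM in mature luminal-like nuclei and 3.71 and 4.76 RPM in basal-like nuclei, although the whole Itgb2 span was highest in basal-like nuclei. The Itgax region had 0.33 and 0.25 RPM against 1.99 and 1.09 RPM (log2 change -2.38, adjusted p = 0.028). Its fetal levels rest on few reads, and it reached the mean read count needed for the test through the adult libraries only.

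The upstream Itga2 region and those of Itgb2, Itgb8, Lama4, Lamb1 and Lamb2 kept their calls under all alternatives tried for them. Without fetal replicate 2 the log2 changes of the other 5 regions were -0.38 at the start of Itga2, 1.40 for Itga2b, 1.00 for Itga4, -2.20 for Itgax and 0.41 for Lama5, and none was called. Without fetal replicate 1 the value was -2.47 for Itgax. Without adult replicate 1 they were -0.53 for Itga2, 1.13 for Itga2b, 0.92 for Itga4 and 0.35 for Lama5, and without adult replicate 2 the value was -0.54 for Itga2. These calls were lost too (without adult replicate 2 the Itga2b region was called at 2.21), and DESeq2 called none of the 5. Scaling by total listed reads without TMM also lost the region at the start of Itga2 and that of Lama5.

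**Figure D4:**
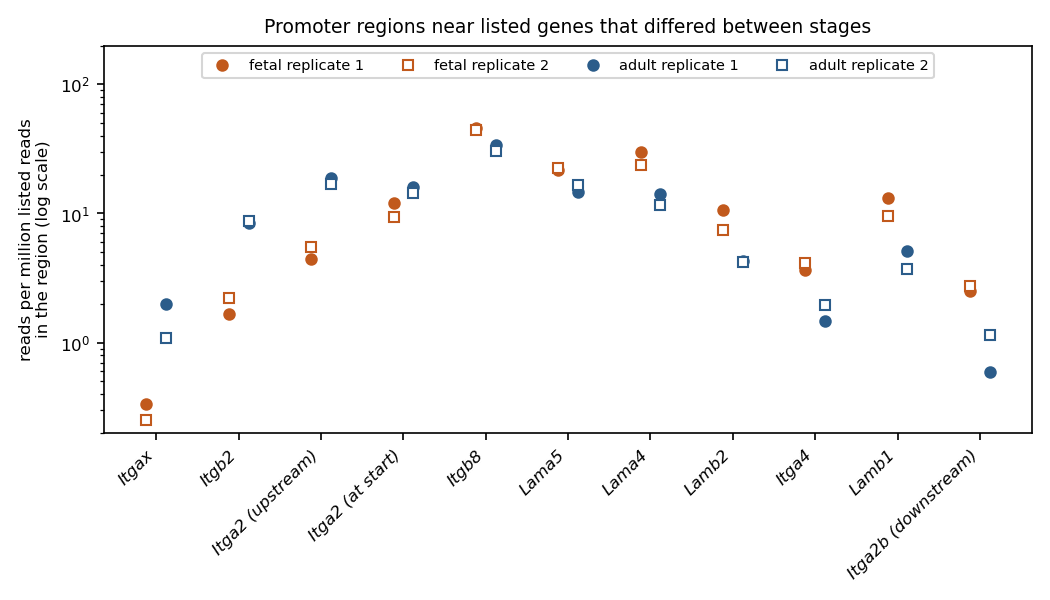
Level of each called promoter region (vertical axis, RPM in the region, log scale) in the 4 libraries, ordered from the lowest to the highest log2 change of fetal over adult. The 4 regions on the left are lower in the fetal libraries (orange) than in the adult ones (blue), and the 7 on the right are higher.

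Distal regions numbered 478 within 10 kb of the spans, and 426 could be tested. Of these, 75 were higher and 83 lower in fetal libraries, where 35.3% of 122865 distal regions were called, 16.6% higher and 18.8% lower. The median log2 change was -0.02 near the listed genes and -0.01 over all distal regions. The direction differed by gene. Around Itga9, 15 of 33 tested regions were higher and 1 was lower, and around Lama3 8 of 28 were higher and 1 was lower. Around Itgav 7 of 20 were lower and none higher, around Itgb6 8 of 19 were lower and 1 was higher, and around Lama5 11 of 26 were lower and none higher. Around Lamc1 8 of 24 were higher and 6 lower. Itga9, Itgav, Itgb6 and Lama5 were the 4 genes whose span calls held under all alternatives, and these regions lie in or near those spans, so the 2 counts share reads.

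**Figure D5:**
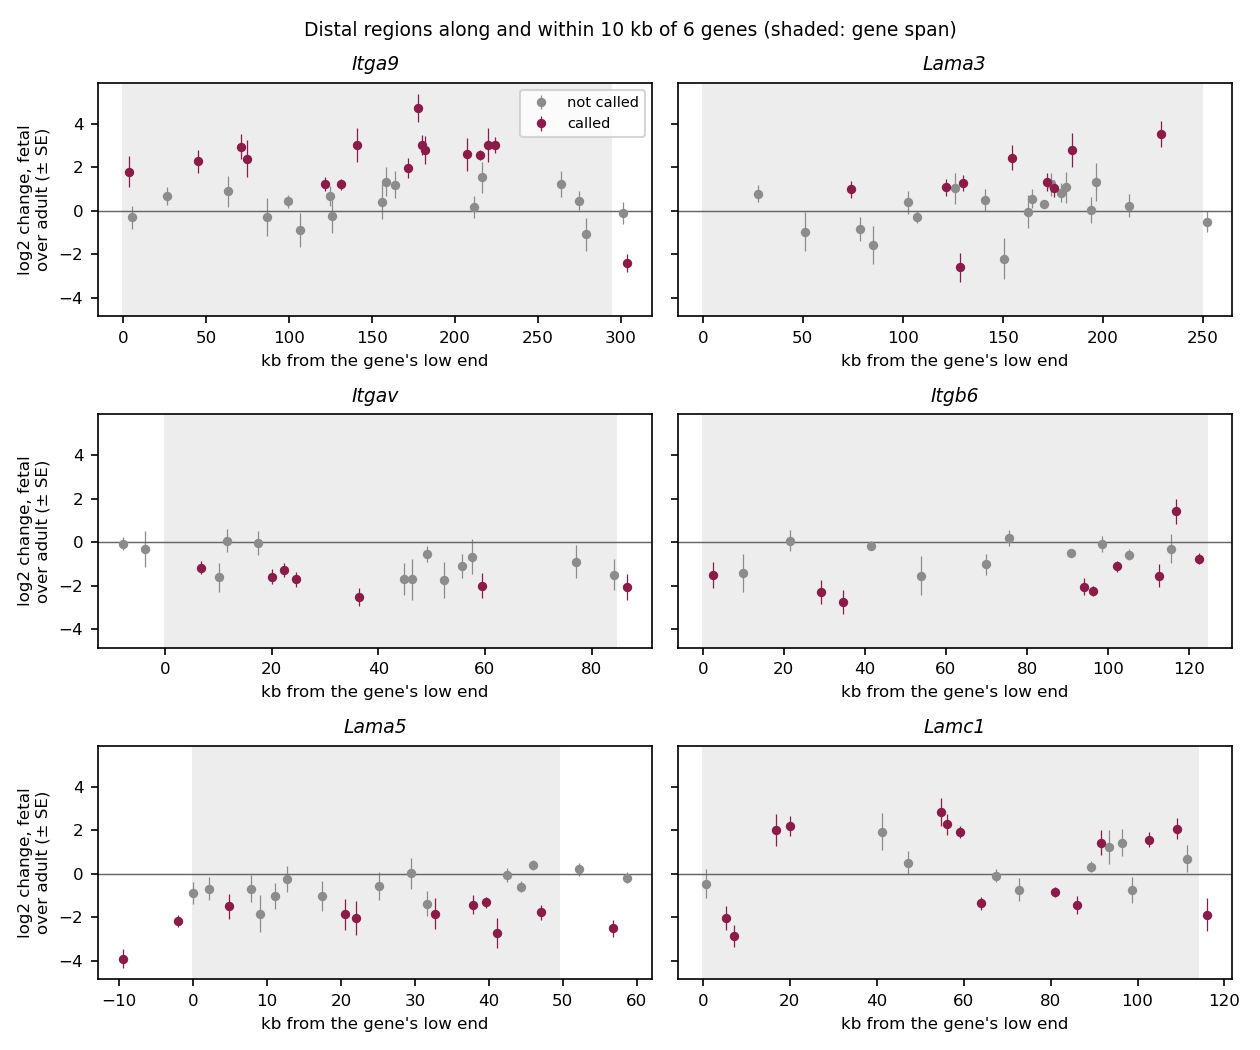
Log2 change of fetal over adult (vertical axis, with SE bars) of each tested distal region against its distance from the low-coordinate end of the gene (horizontal axis, kb), for 6 genes with the gene span shaded. Purple points were called. The called regions of Itgav and Lama5 all lie below 0, 15 of the 16 of Itga9 lie above it, and those of Lamc1 lie on both sides.

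The 12 regions with the widest differences, at most 2 a gene, were mostly lower in fetal libraries. Their choice required enough reads averaged over all libraries, and the adult libraries together held more reads. Regions high in adult libraries thus qualified more easily, and the part of this in the direction of the 12 was not tested. Of all tested distal regions within 10 kb of the spans, 75 were higher and 83 lower. The 12 regions lie inside the named gene unless another place is given, and exon or intron is not in the annotation used. A region of Itga10 (chr3:96649554-96650553) had 0 reads in both fetal libraries and 57 and 88 reads in the adult libraries, 4.19 and 4.56 RPM. With 3 reads taken as the limit that a count of 0 allows in a library, the adult level was at least 8.43-fold higher than fetal replicate 1 allows and at least 22.1-fold higher than fetal replicate 2 allows. In adult nuclei this region had 9.23 and 10.5 RPM in mature luminal-like nuclei and 0 reads in basal-like and luminal progenitor-like nuclei, where 3 reads would be between 0.583 and 1.86 RPM. A region 8.98 kb downstream of Lama5 (chr2:180166394-180167393) had 0.33 and 0.57 RPM in fetal and 7.73 and 7.72 RPM in adult libraries (log2 change -3.90, SE 0.45, adjusted p = 7.19e-09). Its level was 15.5 and 16.7 RPM in mature luminal-like, 0.64 and 0 RPM in luminal progenitor-like nuclei, with 0 reads in basal-like nuclei of both libraries.

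A region of Lama2 (chr10:27249203-27250202) had 0.995 and 1.14 RPM in fetal and 7.87 and 8.39 RPM in adult libraries (log2 change -2.86, SE 0.38, adjusted p = 1.41e-07). In mature luminal-like nuclei it had 17.2 and 18.8 RPM, and in each of the other adult lineages under 1 RPM. A region 2.54 kb upstream of Itga2 (chr13:114934641-114935640) had 0.33 and 0.38 RPM against 3.68 and 3.94 RPM (log2 change -3.32), and 8.01 and 7.58 RPM in mature luminal-like nuclei. A region of Lamb1 (chr12:31291928-31292927) had 1.16 and 0.51 RPM against 4.05 and 4.40 RPM (log2 change -2.50), and 7.14 and 8.92 RPM in mature luminal-like nuclei. These 5 regions, of Itga10, Lama5, Lama2, Itga2 and Lamb1, were all highest in mature luminal-like nuclei among the 3 adult lineages.

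The second Itga2 region (chr13:114852270-114853269) was instead highest in luminal progenitor-like nuclei, with 30.3 and 17.3 RPM against 2.48 and 0.50 RPM in basal-like and 3.31 and 2.08 RPM in mature luminal-like nuclei. Fetal libraries had 0.50 and 0.57 RPM there and adult libraries 13.2 and 5.8 RPM (log2 change -4.04, SE 0.46, adjusted p = 5.5e-09). Fetal class 9 had 1.06 and 1.05 RPM. A region of Lamc1 (chr1:153225688-153226687) had 0.33 and 0.70 RPM against 4.34 and 4.25 RPM (log2 change -2.84), with 9.91 and 6.26 RPM in basal-like, 6.61 and 9.53 RPM in luminal progenitor-like and 0 RPM in mature luminal-like nuclei of both libraries. A region of Itgav (chr2:83758202-83759201) had 1.33 and 1.33 RPM against 11.2 and 4.56 RPM (log2 change -2.50), and a region of Itgb6 (chr2:60632404-60633403) had 0.00 and 0.95 RPM against 4.49 and 4.35 RPM (log2 change -2.74). DESeq2 did not call the Itgb6 region (adjusted p = 0.164), and the other 11 regions kept their calls under all alternatives run for them. Leaving out 1 library moved some of these folds by more than 1.5 times. Without adult replicate 1 the log2 change was -1.83 for the Itgav region and -3.45 for the second Itga2 region, and without adult replicate 2 it was -3.13 and -4.63. Without fetal replicate 2 it was -3.57 for the Lamc1 region and -1.77 for the Lamb1 region at chr12:31291928-31292927, and the fetal side of the Itgb6 region was then at 0 RPM. Counting reads by their midpoint gave -5.00 for the upstream Itga2 region.

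Of the 12, 3 were higher in fetal libraries. Of the 2 in Itga9, the region at chr9:118830599-118831598 had 8.46 and 7.91 RPM in fetal against 1.25 and 0.83 RPM in adult libraries (log2 change 3.03, SE 0.37, adjusted p = 3.45e-08). Fetal class 4 had 6.18 and 11.6 RPM there and adult basal-like nuclei had 4.33 and 2.50 RPM. The region at chr9:118786719-118787718 had 3.98 and 6.14 RPM against 0.74 and 0.57 RPM (log2 change 3.03, SE 0.46). It had 12.5 and 10.7 RPM in fetal class 5 and 1.03 and 2.57 RPM in fetal class 4. The second Lamb1 region (chr12:31310039-31311038) had 2.49 and 5.32 RPM against 0.88 and 0.47 RPM (log2 change 2.67, SE 0.51, adjusted p = 5.83e-05). Without fetal replicate 2 that change was 2.00, still called.

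The authors' deposited co-accessibility scores, in which a higher value means that the accessibility of 2 regions varies more closely together, were read for promoter regions that overlap no other gene. At a score of 0.25 or more, 6 genes had partners, and 65436 of the 12719512 deposited pairs reached that score. A single Lamb3 promoter region (chr1:193299618-193300617) had 12 partners, with a highest score of 0.587. Of these partners 5 were higher and 2 lower in fetal libraries, where 16.6% of all distal regions were higher and 18.8% lower. Of these 12, 11 lay 159 to 269 kb from the Lamb3 promoter region and the other 42.2 kb. Itgb2 and Itgb8 had 2 partners each, and Itga2, Itga8 and Lama4 had 1 each. The partner of the region at the Itga2 start was the region open in luminal progenitor-like nuclei at chr13:114852270-114853269, 79.1 kb away, with a score of 0.265. The partner of Lama4 was higher in fetal libraries, with a log2 change of 1.76, as its promoter region was. The partner of Itga8 was lower, with a log2 change of -1.24 (adjusted p = 0.00185), although the Itga8 span was higher. Which nuclei the authors computed the scores over is not given in the sources used here.

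Other genes that act with integrins and laminins were read from the same fits. Of 39 such genes, 7 were higher and 4 lower in fetal libraries, with a median log2 change of -0.05. Over all genes 11.3% were called higher and 10.9% lower, and these shares are the background for the smaller lists too. Of the 9 integrin ligands, Fn1 and Thbs1 were called, both higher. Fn1, the gene of fibronectin, had 49.1 and 44.2 RPM in fetal against 15.4 and 20.6 RPM in adult libraries (log2 change 1.35, SE 0.165, adjusted p = 0.000117). Thbs1, the gene of thrombospondin-1, had 316 and 336 RPM against 106 and 128 RPM (log2 change 1.48, SE 0.12, adjusted p = 6.48e-06). Both were also higher within lineages. On the basal side the log2 changes were 1.19 for Fn1 and 1.12 for Thbs1, and on the luminal progenitor side they were 2.09 for Fn1 and 0.63 for Thbs1. Spp1 (-2.06), the gene of osteopontin, and Icam1 (-0.89) were called lower on the luminal progenitor side.

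Of the 4 hemidesmosome genes, Dst and Plec, which link integrin alpha6beta4 to keratin filaments, were lower in fetal libraries. Dst had 259 and 263 RPM against 426 and 423 RPM (log2 change -0.70, adjusted p = 9.69e-05), and Plec had 280 and 261 RPM against 406 and 333 RPM (log2 change -0.45, adjusted p = 0.00345). Plec was called in neither lineage, with 0.04 on the basal and -0.24 on the luminal progenitor side. Col17a1, the hemidesmosome collagen, was called on the basal side, with a log2 change of -0.82 (adjusted p = 0.0296). On the luminal progenitor side its log2 change was 0.44 (adjusted p = 0.0771), and the difference between the sides, -1.31, was called (adjusted p = 0.000202). Of 6 basement membrane genes, Col4a1 (log2 change 0.67) and Agrn (0.42) were higher and Nid1 (-0.40) was lower. Within the lineages neither Agrn nor Nid1 passed the test, and the log2 change of Nid1 was 0.53 on the basal and 0.36 on the luminal progenitor side, while that of Agrn was 0.14 and 0.07. Dag1, the gene of the laminin receptor dystroglycan, was higher with a log2 change of 0.56 (adjusted p = 0.00499), and the other 2 laminin receptors, Bcam and Rpsa, were not called. Of 17 adaptors, Tln2 (0.79) and Parvb (0.64) were higher and Fermt1 (-0.45) was lower. On the basal side, where 2.98% of all genes were called higher and 3.18% lower, 3 of the 39 genes were higher and 7 lower. The adaptors among them were Tln2, which was higher, and Fermt1, Parva, Pxn, Tns1 and Tns3, which were lower. On the luminal progenitor side, where 7.75% of all genes were called higher and 8.05% lower, 6 of the 39 were higher and 6 lower. Fermt1 (-0.68), Parva (-0.47) and Tns3 (-0.54) were called lower there too. Ilk, Tln1, Vcl and Ptk2, which couple integrins to actin and to signalling, had log2 changes from -0.09 to -0.05 between all fetal and adult nuclei and were not called.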

How the data were processed

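The 2 fetal and 2 adult libraries were single-nucleus ATAC-seq of sorted mammary epithelial cells. The authors deposited read positions with barcodes, lists of nuclei, the read count and class of each nucleus, promoter and distal regions, and a co-accessibility score per pair of regions (Cicero, per the file names). Bowtie2, MACS2, bedtools and mm10 are named in the submitters' processing notes without versions, and filters, removal of duplicate reads and the clustering method are not given in the sources used here. Recounted reads equalled the deposited read counts for 7846 of 7846 nuclei.

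Reads overlapping each gene span plus 2 kb on both sides, or each region, were counted per library and per class and are given as reads per 1000000 reads of the same nuclei (RPM). Cells were not treated as replicates. Classes were taken as deposited, and no doublet caller was run. Features with a mean of at least 10 reads were tested with edgeR 4.0.16 (R 4.3.3; TMM, quasi-likelihood test, two-sided), with Benjamini-Hochberg adjustment over all of them and a threshold of 0.05. SE is the absolute log2 change divided by the square root of F. Library totals ran from 6028168 to 19304830 reads, and intervals from reads cover counting error only. The labels do not say whether replicates came from separate animals, so p-values measure only the spread between these libraries. The labels name no batch. An exact permutation test of 2 against 2 cannot go below 0.333.

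Every listed gene called in a stage comparison is named, with every called promoter region and the 12 distal regions with the widest differences, at most 2 a gene, among those with a mean of at least 30 reads. Members and lists were chosen with earlier results of these data known. DESeq2 1.42.0, other filters and scalings, other class choices and leaving out each library were tried as alternatives. The code was tested on simulated data. Tables were made with Python 3.11.15, numpy 2.4.6 and pandas 2.3.3, and plots with matplotlib 3.10.9.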

Additional observations from a re-analysis of the deposited data

Results flagged for a closer look

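For 8 genes the stage difference itself differed between lineages by the test of that difference (edgeR, interaction term with the library as a block). The authors drew the classes from the same reads, so this test is not independent of them. The fetal-over-adult log2 change on the basal side (fetal class 4 against adult basal-like nuclei) minus that on the luminal progenitor side (fetal class 9 against adult luminal progenitor-like nuclei) was 0.93 for Itga2, 1.23 for Itgav and 0.98 for Lama4. It was -1.24 for Itga11, -1.35 for Lama1, -0.69 for Lama3, -0.78 for Lamb3 and -0.94 for Lamc3. Of these 8 calls, 2 (Lama1 and Lama4) held under all alternatives. In the same test 9 of 9 basal markers had a called lower value, and Kit, Lcn2 and Elf5 of the luminal progenitor markers a called higher one, and their part in the result was not tested.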

How the results depend on the processing

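No listed gene or named region that was called with the main settings reversed its direction under the alternatives run. Lama2, not called with the main settings, did turn on the luminal progenitor side. Its log2 change there was -0.11 with all libraries, -0.57 without adult replicate 1 and 0.58 without adult replicate 2. The balance of listed genes on the luminal progenitor side, 8 higher and 6 lower, became 4 and 6 under DESeq2 and 7 and 9 with fetal classes 5 and 9 together. That of all promoter regions, 1954 higher and 2038 lower, became 1737 and 1584 without TMM, and that of all genes, 2122 and 2052, became 2074 and 2212 with no filter. DESeq2 called 2622 promoter regions, 6 of them near the listed genes (edgeR 3992 and 11), and 24872 distal regions, 91 of them near the listed genes (edgeR 43423 and 158). With fetal classes 4 and 12 together, chosen after seeing the data, 1582 genes were called on the basal side, 7 of them listed. DESeq2 called 301 genes there (edgeR 1015), 1468 on the luminal progenitor side (edgeR 2745) and 274 for the difference between lineages, 2 of them listed (edgeR 1037 and 8). Without the library block the last count was 535, 4 of them listed (Itga2, Itgav, Lama1 and Lama4). A mean of at least 50 reads left 15301 called distal regions, 61 of them near listed genes. The cause of these differences was not tested, beyond the smaller number of regions tested under that filter.

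Leaving out 1 library gave 1812 to 4463 called genes between stages, 5 to 13 of them listed (4174 and 13 with all libraries), with the fewest without fetal replicate 2. For promoter regions it gave 2514 to 3057, with 6 to 11 near the listed genes, and for distal regions 30355 to 42172, with 119 to 147 near them. On the basal side it gave 547 to 866 genes, 2 to 4 of them listed. On the luminal progenitor side it gave 1408 to 2477, 9 to 14 of them listed. For the difference between lineages it gave 407 to 705, 4 to 6 of them listed. A lone library of a stage was then assumed to vary like the other stage.

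With the replicate number as a replicate block, 6421 genes were called between stages, 19 of them listed. The replicate 1 minus replicate 2 differences correlated at 0.27 across genes between the stages, with 2 pairs only, and the labels do not say that a number marks a shared source, so the numbers were not taken to pair the samples.

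At 2-fold in both libraries the counts of listed genes were 5 for basal-like over luminal progenitor-like, 1 for mature luminal-like over basal-like, 0 for either direction between fetal classes 4 and 9, 4 higher and 7 lower for adult class 6, and 1 higher and 9 lower for fetal class 6. The first count includes Itgad and the second is Itgax alone, both genes with few reads. With classes 8, 3 and 11 alone, 7 were higher in basal-like than luminal progenitor-like, 2 in mature luminal-like than basal-like and 3 in mature luminal-like than luminal progenitor-like nuclei. With classes 1, 7 and 2 alone, 1 was higher in luminal progenitor-like than basal-like nuclei. Within 50 kb of the spans, 13 promoter regions were higher and 8 lower, and 113 distal regions were higher and 138 lower. Genes with few reads, such as Itgad and Itgax, are limited by depth.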
